A study of Mus musculus with 9 samples.

Results

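The genes described here are the protein tyrosine phosphatases and dual-specificity phosphatases of lung endothelial cells, compared between mice whose Tie1 resists proteolytic cleavage and wild type mice. Members were chosen by name: every gene of the deposited table whose symbol starts with Ptpn, Ptpr, Ptp4a or Dusp, without Ptprb, Dusp1, Dusp5 and Dusp6. This gave 29 of the 9277 genes in the table. They are 10 receptor-type phosphatases, 9 non-receptor phosphatases, 3 Ptp4a phosphatases, 4 MAP kinase phosphatases and 3 atypical dual-specificity phosphatases. At an adjusted p below 0.05 (limma), 2 members passed, Ptpn11 and Dusp4, both lower in Tie1-CR (6.9% of the members, against 4.05% of all genes). Of 21 alternative analyses, 5 lost the call of Ptpn11 and 11 that of Dusp4.

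RNA of endothelial cells from mouse lung was sequenced in 5 Tie1-CR libraries, from mice with cleavage-resistant Tie1, and in 4 Tie1-WT libraries, from wild type mice. Each library name includes PBS, whose role the labels do not explain. The names also carry running numbers of unstated meaning, lower in every Tie1-WT library than in every Tie1-CR library. An effect of that order cannot be told apart from genotype. The sources used here do not give the age, sex or strain of the mice or the way the cells were isolated. No label ties a library to a mouse of its own, so the p-values reflect the spread between these libraries, which may be technical.

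Protein tyrosine phosphatases remove phosphate from tyrosine residues and so counter tyrosine kinases, among them the endothelial receptors Tek, Tie1 and Kdr. Receptor-type members cross the membrane and several of them sit at cell contacts, while non-receptor members are recruited to signalling complexes or internal membranes. Dual-specificity phosphatases accept phosphotyrosine, phosphoserine and phosphothreonine, and the MAP kinase phosphatases among them switch off ERK, JNK and p38.

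What these proteins share is an active-site loop in which a catalytic cysteine follows a histidine and is held near an arginine. The loop was searched in the coding sequence of each gene as a histidine codon, a cysteine codon, any 5 codons and an arginine codon, in frame. All 29 members held it, against 279 of the 8857 table genes with a coding transcript that was searched (3.15%). Of the receptor-type members 8 of 10 held 2 matches, as is usual for proteins with a membrane-proximal and a membrane-distal phosphatase domain, and Ptprg and Ptprj held 1. The windows come from GENCODE M21 transcripts of GRCm38, 33 bases each, with the histidine, cysteine and arginine codons in capitals. They show the match in Ptpn11 and Dusp4 and in 1 member of each other class. For Ptprm it is the second of the 2 matches, nearer the end of the coding sequence, the first being at codon 1095. A match is a run of codons and does not show that its domain is catalytically active.
Ptpn11, chromosome 5, cysteine at codon 463: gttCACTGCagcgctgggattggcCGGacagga
Dusp4, chromosome 8, cysteine at codon 284: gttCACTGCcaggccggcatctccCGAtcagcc
Ptprm, chromosome 17, cysteine at codon 1389: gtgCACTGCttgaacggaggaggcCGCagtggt
Ptp4a1, chromosome 1, cysteine at codon 104: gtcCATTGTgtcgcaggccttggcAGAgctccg
Dusp23, chromosome 1, cysteine at codon 95: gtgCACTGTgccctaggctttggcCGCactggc

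Across the libraries 38208696 to 54408116 reads were counted, and a gene at 10 CPM, reads scaled to the library total, rests on 382 to 544 reads, a counting error of 4.29% to 5.12%. Intervals and errors of that kind cover counting only. All 10 endothelial markers were in the table, with T and NK cell markers (0 of 8) and B cell markers (0 of 4) absent from it. Of the pan-leukocyte markers 2 of 10 were present, of the myeloid 2 of 11, of the epithelial 7 of 10, of the fibroblast 2 of 5 and of the mural 2 of 5. The 4 leukocyte genes summed to 216 to 283 CPM in Tie1-CR libraries and 193 to 252 CPM in Tie1-WT libraries (two-sided exact permutation p = 0.0873). For the pan-leukocyte genes alone the difference was 0.0077 log2 (two-sided exact permutation p = 0.929), and of the myeloid genes Lyz2 was at 1.11 log2 (limma, adjusted p = 0.0669) and Cd68 fell by 0.90 log2 (limma, adjusted p = 0.0064). The 7 epithelial genes summed to 312 to 691 CPM in Tie1-CR libraries and 144 to 518 CPM in Tie1-WT libraries (two-sided exact permutation p = 0.19, where the smallest possible is 0.00794). Of these 7, Sftpd and Cyp2f2 rose (limma, adjusted p = 0.044 and 0.0428), 5 were higher at an unadjusted p under 0.05, and Ager was at -0.54 log2. Each gene of the table reaches 10 CPM in some library. Cyp2f2 and Sftpb did so in Tie1-CR libraries only, and Cd68 in Tie1-WT libraries only. That floor may have favoured the directions of these genes, and the count of 5, which includes Cyp2f2 and Sftpb. Lyz2 averaged 76.2 CPM in Tie1-CR and 37.8 CPM in Tie1-WT, and the higher leukocyte sum came from it. Within each genotype the libraries ranked in the same order for Lyz2 as for the epithelial sum. The leukocyte and epithelial levels are thus not independent of each other. The endothelial marker Erg fell by 0.41 log2 (limma, adjusted p = 0.0052), the only one of the 10 to pass the threshold. Of these 10, 8 had differences above 0 and 2 below. The sum of all 10 averaged 19161 ± 287 CPM in Tie1-CR and 17978 ± 730 CPM in Tie1-WT (SD), and the groups overlapped. Tie1 itself averaged 2433 CPM in Tie1-CR and 2136 CPM in Tie1-WT (limma, adjusted p = 0.107), which does not test a label that concerns the cleavage of the protein. In RNA of many cells, fewer cells of a type and less RNA per cell cannot be told apart.

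Differences are Tie1-CR minus Tie1-WT on the log2(CPM + 1) scale, tested with limma across all 9277 genes, and adjusted after Benjamini and Hochberg, with a call at an adjusted p below 0.05. Of the 29 members 0 rose and 2 fell, which is 6.9% of them. Over all genes 4.05% passed, 1.28% higher and 2.77% lower in Tie1-CR. At an unadjusted p under 0.05 there were 3 members higher (Dusp23, Dusp7 and Ptprf) and 4 lower (Ptpn11, Dusp4, Ptp4a1 and Ptp4a2), against 22.3% of all genes, 8.27% higher and 14.0% lower. The members' median difference was -0.0064, with 14 above 0 and 15 below, and the median over all genes was -0.027, with 41.5% above 0. The members' differences ran between -0.36 and 0.51. For 24 of the 29 the 95% interval of the difference lay within 0.5 log2 on either side of 0. The libraries of the 2 genotypes did not overlap for 3 members (10.3%), all lower in Tie1-CR, against 10.5% of all genes, 3.74% higher and 6.74% lower. The share of members without overlap is close to that of the table, and the members do not stand apart from it by these counts.

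**Figure D1:**
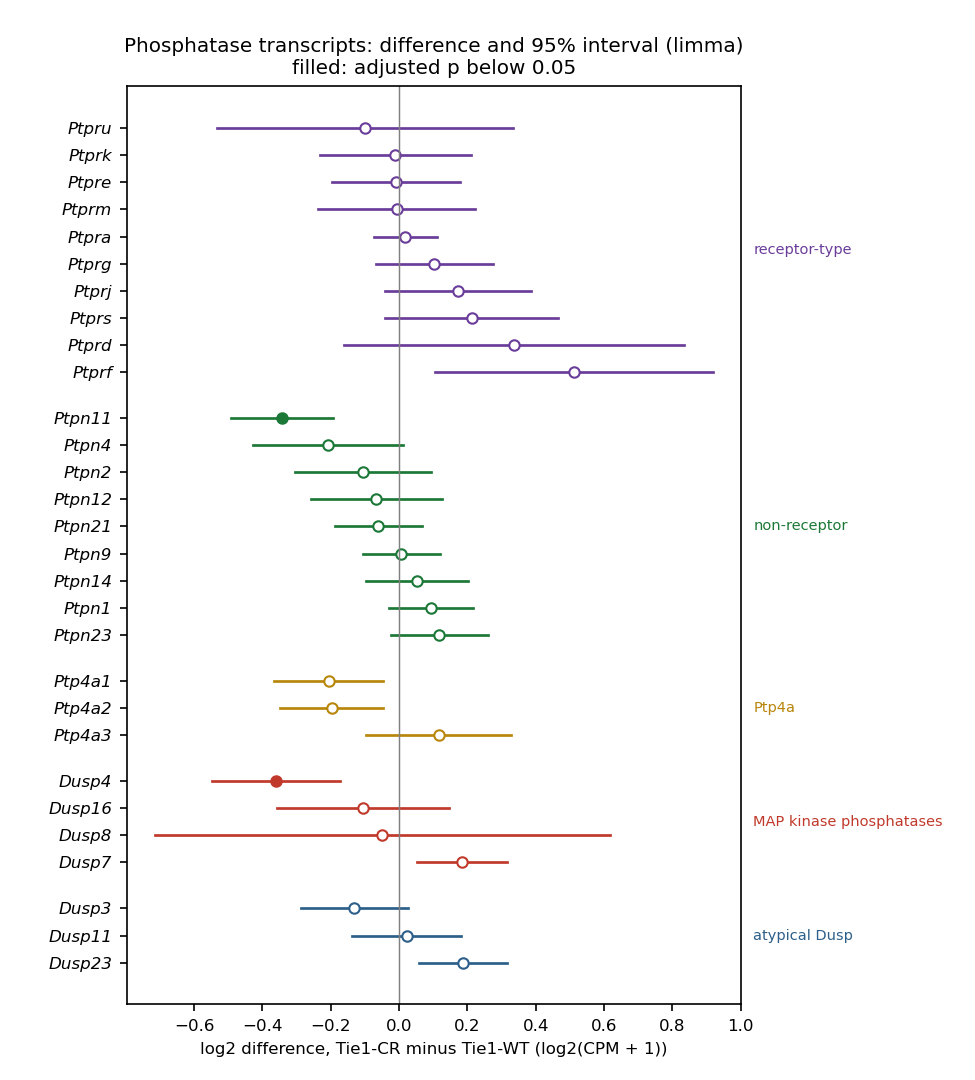
Difference of each of the 29 members, Tie1-CR minus Tie1-WT on the log2(CPM + 1) scale (horizontal axis), with its 95% interval from limma, grouped by class. Filled points are Ptpn11 and Dusp4, the members with an adjusted p below 0.05, and the intervals of Dusp8, Ptprd, Ptpru and Ptprf are the widest.

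Ptpn11 encodes SHP2, a cytosolic phosphatase whose SH2 domains bind phosphorylated receptors and docking proteins and which promotes signalling from receptor tyrosine kinases to ERK. It lies on the minus strand at chr5:121130533-121191397 (GRCm38). Its level was 43.6, 41.6, 45.7, 38.6 and 47.3 CPM in the Tie1-CR libraries and 57.8, 58.7, 54.1 and 50.3 CPM in the Tie1-WT libraries. Every Tie1-CR library was below every Tie1-WT library. The means were 43.3 ± 3.44 CPM in Tie1-CR (SD, n = 5) and 55.2 ± 3.82 CPM in Tie1-WT (SD, n = 4). The difference was -0.34 log2 (SE 0.068, 95% interval -0.49 to -0.19), a level 1.27-fold lower in Tie1-CR (limma, adjusted p = 0.0225). The call was lost without Tie1-WT replicate 1, 2 or 3 (adjusted p = 0.0884, 0.0725 and 0.0516), and with the leukocyte or the epithelial level as a covariate (adjusted p = 0.171 and 0.133). The size of the difference stayed between -0.39 and -0.30 over all 21 alternatives.

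Dusp4 encodes a nuclear MAP kinase phosphatase that is itself induced by ERK signalling. It lies on the plus strand at chr8:34807297-34819894. Its level was 10.2, 13.1, 11.0, 12.6 and 11.6 CPM in the Tie1-CR libraries and 16.8, 13.9, 15.1 and 15.3 CPM in the Tie1-WT libraries. The groups did not overlap, although the highest Tie1-CR library and the lowest Tie1-WT library differed by under 1 CPM. The means were 11.7 ± 1.17 CPM in Tie1-CR (SD, n = 5) and 15.3 ± 1.19 CPM in Tie1-WT (SD, n = 4). The difference was -0.36 log2 (SE 0.086, 95% interval -0.55 to -0.17), a level 1.28-fold lower in Tie1-CR (limma, adjusted p = 0.0415). The call was lost in 11 of the 21 alternatives, 8 of which leave out a single library, every one except Tie1-CR replicate 2 (adjusted p = 0.0614 to 0.143). It was also lost with the leukocyte level (-0.37 log2, adjusted p = 0.21) and the epithelial level (-0.33 log2, adjusted p = 0.221) as a covariate. Over all 21 alternatives the difference lay between -0.405 and -0.312 log2.

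**Figure D2:**
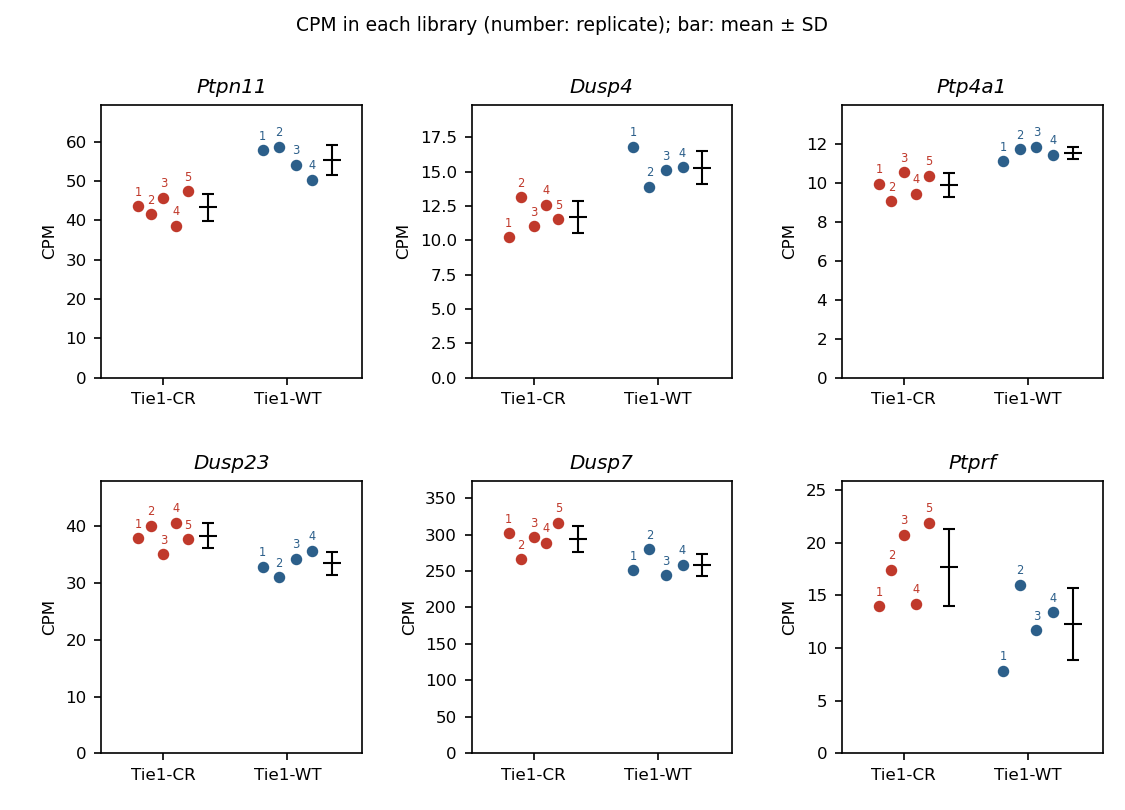
Level in CPM (vertical axis, from 0) of 6 members in each library, Tie1-CR in red and Tie1-WT in blue, numbered by replicate, with mean ± SD beside each group (n = 5 and 4). Ptpn11, Dusp4 and Ptp4a1 are lower in every Tie1-CR library than in every Tie1-WT library, and Dusp23, Dusp7 and Ptprf overlap.

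The other MAP kinase phosphatases did not pass the threshold. Dusp7, a cytoplasmic phosphatase with a preference for ERK, was the most abundant of the class, with 302, 266, 296, 289 and 316 CPM in the Tie1-CR libraries and 251, 279.9, 244 and 259 CPM in the Tie1-WT libraries. All but 1 of the Tie1-CR libraries were above every Tie1-WT library. The means were 294 ± 18.5 CPM in Tie1-CR (SD, n = 5) and 258 ± 15.5 CPM in Tie1-WT (SD, n = 4), a difference of 0.18 log2 (limma, adjusted p = 0.103). With library weights it passed (adjusted p = 0.0476). Dusp16, which acts on JNK and p38, averaged 25.1 ± 3.53 CPM in Tie1-CR and 27.1 ± 4.04 CPM in Tie1-WT (limma, adjusted p = 0.621).

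Dusp8, which also acts on JNK and p38, had 183, 64.7, 127, 73.8 and 128 CPM in the Tie1-CR libraries and 85.4, 144, 158 and 77.8 CPM in the Tie1-WT libraries. High and low libraries occurred in both genotypes, with Tie1-CR replicates 2 and 4 and Tie1-WT replicates 1 and 4 the low ones. Its means were 115 ± 47.9 CPM in Tie1-CR and 116 ± 40.7 CPM in Tie1-WT, and the 95% interval of the difference, -0.72 to 0.62 log2, was the widest of the members. The standard deviation within genotype was 0.573 log2, larger than that of 99.5% of all genes in the table.

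The atypical class holds phosphatases with varied substrates. Dusp23, a small phosphatase of little more than the catalytic domain, had 37.9, 40.1, 35.1, 40.7 and 37.8 CPM in the Tie1-CR libraries and 32.9, 31.1, 34.3 and 35.7 CPM in the Tie1-WT libraries. A single pair of libraries, Tie1-CR replicate 3 and Tie1-WT replicate 4, kept the groups from separating. The means were 38.3 ± 2.20 CPM in Tie1-CR and 33.5 ± 2.00 CPM in Tie1-WT, a difference of 0.19 log2 (limma, adjusted p = 0.0928), and quantile normalization brought it past the threshold (adjusted p = 0.0445). Dusp3, also called VHR, a phosphatase of ERK and JNK, averaged 112 ± 11.2 CPM in Tie1-CR and 122 ± 5.03 CPM in Tie1-WT (limma, adjusted p = 0.304). Dusp11, which acts on the phosphates at RNA ends, averaged 125 ± 12.9 CPM in Tie1-CR and 122 ± 4.28 CPM in Tie1-WT (limma, adjusted p = 0.883).

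The Ptp4a phosphatases, also called PRL phosphatases, are prenylated proteins that bind CNNM magnesium transporters. Ptp4a1 had 9.9, 9.1, 10.5, 9.4 and 10.4 CPM in the Tie1-CR libraries and 11.1, 11.7, 11.8 and 11.4 CPM in the Tie1-WT libraries. Every Tie1-CR library was below every Tie1-WT library, but the difference of -0.21 log2 did not pass (limma, adjusted p = 0.124). The means were 9.86 ± 0.621 CPM in Tie1-CR and 11.5 ± 0.327 CPM in Tie1-WT. Its level is uncertain, because GENCODE M21 gives the symbol to 2 genes on the same strand that share 70.8% of the exonic bases of the one used here. Ptp4a2 averaged 101.6 ± 9.57 CPM in Tie1-CR and 116 ± 5.44 CPM in Tie1-WT, a difference of -0.20 log2 (limma, adjusted p = 0.123). Ptp4a3, the most abundant of the class, averaged 476 ± 63.7 CPM in Tie1-CR and 437 ± 39.0 CPM in Tie1-WT, a difference of 0.12 log2 (limma, adjusted p = 0.501). Ptp4a1 and Ptp4a2 thus had negative differences and Ptp4a3 a positive one, none of them past the threshold.

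Among the other non-receptor members 0 of 8 passed. Ptpn1, the phosphatase PTP1B of the endoplasmic reticulum membrane, had the highest CPM, uncorrected for length, with 125 ± 7.59 CPM in Tie1-CR and 117 ± 5.98 CPM in Tie1-WT (difference 0.094 log2; limma, adjusted p = 0.351). Ptpn14, a FERM-domain phosphatase that restrains the transcriptional coactivator YAP, had 85.4 ± 7.34 CPM in Tie1-CR and 82.1 ± 4.74 CPM in Tie1-WT (limma, adjusted p = 0.683). Ptpn12, or PTP-PEST, a regulator of focal adhesions, had 73.5 ± 9.67 CPM in Tie1-CR and 76.5 ± 3.13 CPM in Tie1-WT (limma, adjusted p = 0.688). The next smallest p-values of the class after Ptpn11 belonged to Ptpn4 and Ptpn23. Ptpn4, a FERM-domain and PDZ-domain phosphatase, averaged 35.0 ± 5.62 CPM in Tie1-CR and 40.1 ± 1.78 CPM in Tie1-WT (difference -0.21 log2; limma, adjusted p = 0.249). Ptpn23, which takes part in sorting receptors at endosomes, averaged 20.9 ± 0.555 CPM in Tie1-CR and 19.2 ± 1.76 CPM in Tie1-WT (difference 0.12 log2; limma, adjusted p = 0.311). The remaining 3, Ptpn2, Ptpn9 and Ptpn21, had differences of -0.10, 0.0070 and -0.061 log2.

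The receptor-type class held the members with the highest CPM, uncorrected for length, and 0 of its 10 passed. The median of its differences was 0.061 log2, with 6 above 0 and 4 below. Ptprm, Ptprk and Ptpru belong to the same subfamily. The extracellular parts of Ptprm and Ptprk bind the same protein on the neighbouring cell, and Ptprm has been found at endothelial contacts with VE-cadherin. Ptprm had 725, 782, 872, 1032 and 776 CPM in the Tie1-CR libraries and 872, 718, 834 and 929 CPM in the Tie1-WT libraries. Its means were 837 ± 121 CPM in Tie1-CR and 838 ± 89.2 CPM in Tie1-WT (difference -0.0064 log2, 95% interval -0.24 to 0.22; limma, adjusted p = 0.979). Ptprk averaged 361 ± 51.5 CPM in Tie1-CR and 361 ± 26.6 CPM in Tie1-WT (limma, adjusted p = 0.964). For both genes the groups overlapped.

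Ptprg, whose extracellular part resembles carbonic anhydrase, averaged 616 ± 66.2 CPM in Tie1-CR and 572 ± 33.3 CPM in Tie1-WT (difference 0.10 log2; limma, adjusted p = 0.455). Ptprj, known as DEP-1, a phosphatase of Kdr, averaged 35.4 ± 5.70 CPM in Tie1-CR and 31.0 ± 1.20 CPM in Tie1-WT (difference 0.17 log2; limma, adjusted p = 0.321). Ptpra and Ptpre are closely related to each other and have short extracellular parts. Ptpra, which can activate Src, averaged 177 ± 3.87 CPM in Tie1-CR and 175 ± 5.76 CPM in Tie1-WT, and the 95% interval of its difference, -0.074 to 0.11 log2, was the narrowest of the members. Ptpre averaged 46.5 ± 5.03 CPM in Tie1-CR and 46.7 ± 4.56 CPM in Tie1-WT (limma, adjusted p = 0.965).

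Ptprf, Ptprs and Ptprd form the LAR subfamily, which binds heparan sulphate proteoglycans and synaptic partners in neurons. All had positive differences, and none passed. Ptprf had 14.0, 17.4, 20.8, 14.2 and 21.9 CPM in the Tie1-CR libraries and 7.9, 16.0, 11.7 and 13.4 CPM in the Tie1-WT libraries. Tie1-WT replicate 1 was the lowest, and Tie1-WT replicate 2 exceeded 2 of the Tie1-CR libraries. The means were 17.7 ± 3.64 CPM in Tie1-CR and 12.2 ± 3.42 CPM in Tie1-WT, a difference of 0.51 log2 (95% interval 0.10 to 0.92; limma, adjusted p = 0.131). Ptprs averaged 142 ± 20.3 CPM in Tie1-CR and 122 ± 17.4 CPM in Tie1-WT (difference 0.21 log2; limma, adjusted p = 0.301). Ptprd averaged 11.3 ± 2.10 CPM in Tie1-CR and 9.13 ± 3.46 CPM in Tie1-WT (difference 0.34 log2; limma, adjusted p = 0.406).

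Epithelial markers are shown beside Ptprf and Ptprd. Of the 10 on the list, Epcam, Krt8 and Krt18 were not in the table. The sum of the other 7 was 312, 404, 473, 380 and 691 CPM in the Tie1-CR libraries and 144, 344, 165 and 518 CPM in the Tie1-WT libraries. Tie1-WT replicate 1, lowest for Ptprf, was also lowest for the sum. Ptprd and the sum shared the lowest Tie1-CR library, replicate 1, and the highest Tie1-WT library, replicate 4. They differed in the highest Tie1-CR library and in the lowest Tie1-WT library. How closely either gene followed the sum was not tested. With the epithelial sum as a covariate the difference was 0.20 log2 for Ptprf (limma, adjusted p = 0.586) and 0.00084 log2 for Ptprd (limma, adjusted p = 0.999). For Ptpn11 and Dusp4 the difference with that covariate was -0.34 and -0.33 log2. The part of epithelial cells in any of these differences was not tested.

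**Figure D3:**
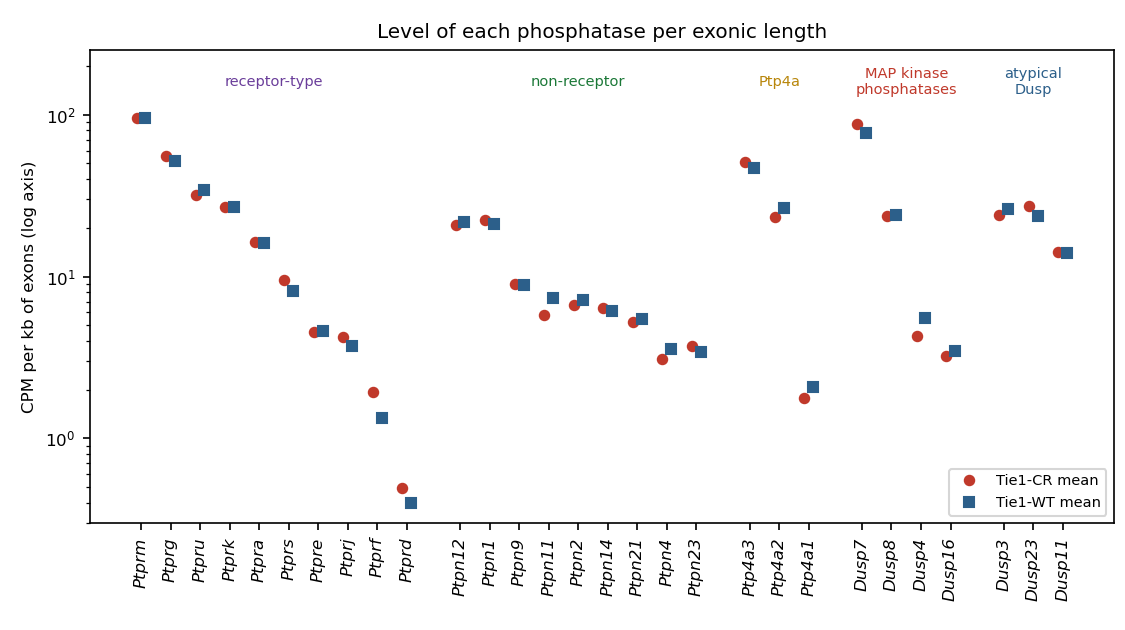
Mean level of each member in CPM per kilobase of exons (vertical log axis), Tie1-CR as circles and Tie1-WT as squares, ordered within class by the Tie1-WT level. Ptprm and Dusp7 are the most abundant per length and Ptprd the least, and the marks of the 2 genotypes nearly coincide for most members.

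Levels of different genes were compared per kilobase of annotated exons, which need not match the transcripts the cells use. On that scale Ptprm had 94.9 CPM per kb in Tie1-CR and 94.97 CPM per kb in Tie1-WT, and Dusp7 had 87.6 CPM per kb in Tie1-CR and 77.0 CPM per kb in Tie1-WT. Ptprg followed with 56.0 CPM per kb in Tie1-CR and 51.9 CPM per kb in Tie1-WT, then Ptp4a3 with 50.9 CPM per kb in Tie1-CR and 46.7 CPM per kb in Tie1-WT. Ptpn11 was 17th of the 29 by its Tie1-WT level, with 5.79 CPM per kb in Tie1-CR and 7.37 CPM per kb in Tie1-WT. Dusp4 was 20th, with 4.27 CPM per kb in Tie1-CR and 5.58 CPM per kb in Tie1-WT. Ptpn11 and Dusp4 thus both lay in the lower part of the order.

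The summed level of all 29 members was 4266 ± 48.6 CPM in Tie1-CR (SD, n = 5) and 4167 ± 32.6 CPM in Tie1-WT (SD, n = 4). Every Tie1-CR library (4222 to 4339 CPM) was above every Tie1-WT library (4137 to 4208 CPM), while the 2 members that passed were lower. Abundant members weigh most in the sum. The sum of each class taken alone overlapped between the genotypes. Its mean was higher in Tie1-CR for receptor-type, Ptp4a and MAP kinase phosphatases, and lower for non-receptor and atypical members. No background for such sums was computed. Gene by gene, 14 of the 29 differences were above 0 and 15 below, and 0 members were called higher. Of this sum, in which long genes weigh more, receptor-type members made up 57.9% in both genotypes. Non-receptor members made up 11.4% in Tie1-CR and 11.9% in Tie1-WT, and Ptp4a members 13.8% in Tie1-CR and 13.5% in Tie1-WT. MAP kinase phosphatases made up 10.5% in Tie1-CR and 10% in Tie1-WT, and atypical members 6.44% in Tie1-CR and 6.67% in Tie1-WT. Per kilobase of exons the receptor-type share was 41.8% in Tie1-CR and 42.1% in Tie1-WT, and that of the MAP kinase phosphatases 20.1% in Tie1-CR and 19.1% in Tie1-WT.

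Libraries of the same genotype differed widely for some members and little for others. The standard deviation within genotype had a median of 0.126 log2 over the members and 0.103 log2 over all genes. It was 0.573 log2 for Dusp8, 0.414 log2 for Ptprd, 0.369 log2 for Ptpru and 0.338 log2 for Ptprf, and 0.039 log2 for Ptpra, which exceeded 1.58% of all genes. Ptpru had 333, 198, 191, 225 and 187 CPM in the Tie1-CR libraries and 241, 297, 276 and 160 CPM in the Tie1-WT libraries. Tie1-CR replicate 1 stood above the other libraries of its genotype for Ptpru and for Dusp8. The mean of Ptpru was 227 ± 61.3 CPM in Tie1-CR and 243 ± 60.5 CPM in Tie1-WT (difference -0.099 log2, 95% interval -0.53 to 0.33; limma, adjusted p = 0.806).

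**Figure D4:**
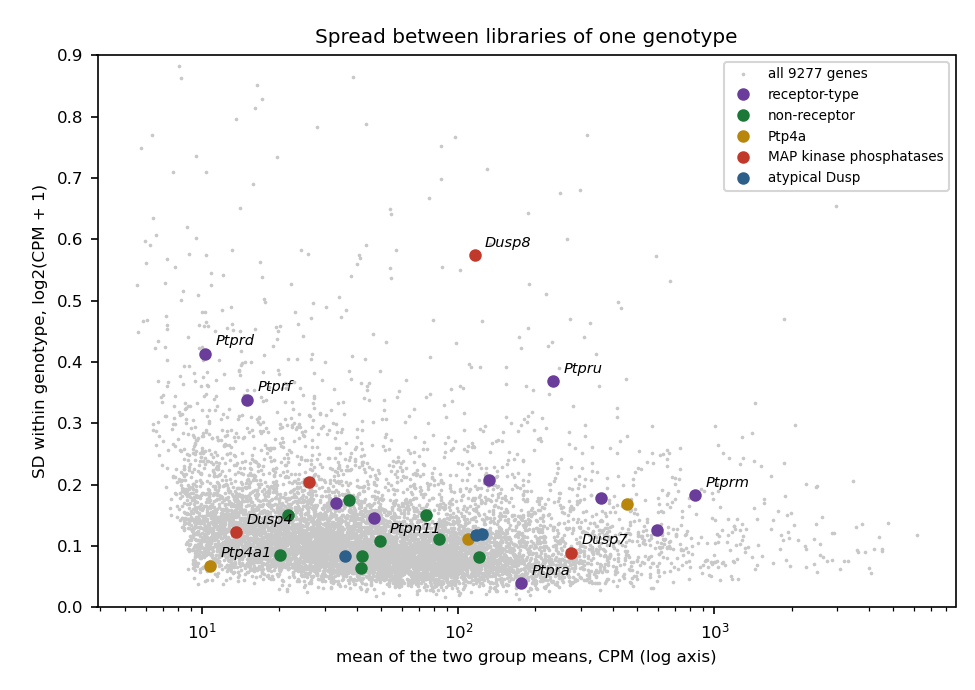
Standard deviation between libraries of the same genotype on the log2(CPM + 1) scale (vertical axis) against mean level in CPM (horizontal log axis), for all 9277 genes in grey and the 29 members in the colours of their classes. Dusp8, at 0.573, and Ptpru, at 0.369, lie above nearly all genes of similar level, and Ptpra, at 0.039, lies at the lower edge.

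The 4 relatives left out by the rule are shown for context. Dusp5, a nuclear phosphatase of ERK, averaged 7.66 CPM in Tie1-CR and 23.7 CPM in Tie1-WT (difference -1.49 log2; limma, adjusted p = 0.0014). It reached 10 CPM in Tie1-WT libraries only, so the floor of the table may have favoured this direction. Dusp6, a cytoplasmic ERK phosphatase related to Dusp7, had 501, 237, 497, 343 and 588 CPM in the Tie1-CR libraries and 445, 508, 509 and 271 CPM in the Tie1-WT libraries (limma, adjusted p = 0.962). Its low libraries, Tie1-CR replicates 2 and 4 and Tie1-WT replicate 4, were low for Dusp8 too, where Tie1-WT replicate 1 was low as well. Dusp1 averaged 1638 CPM in Tie1-CR and 2106 CPM in Tie1-WT (limma, adjusted p = 0.366), and Ptprb, the endothelial phosphatase VE-PTP, 3682 CPM in Tie1-CR and 3431 CPM in Tie1-WT (limma, adjusted p = 0.530).

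**Figure D5:**
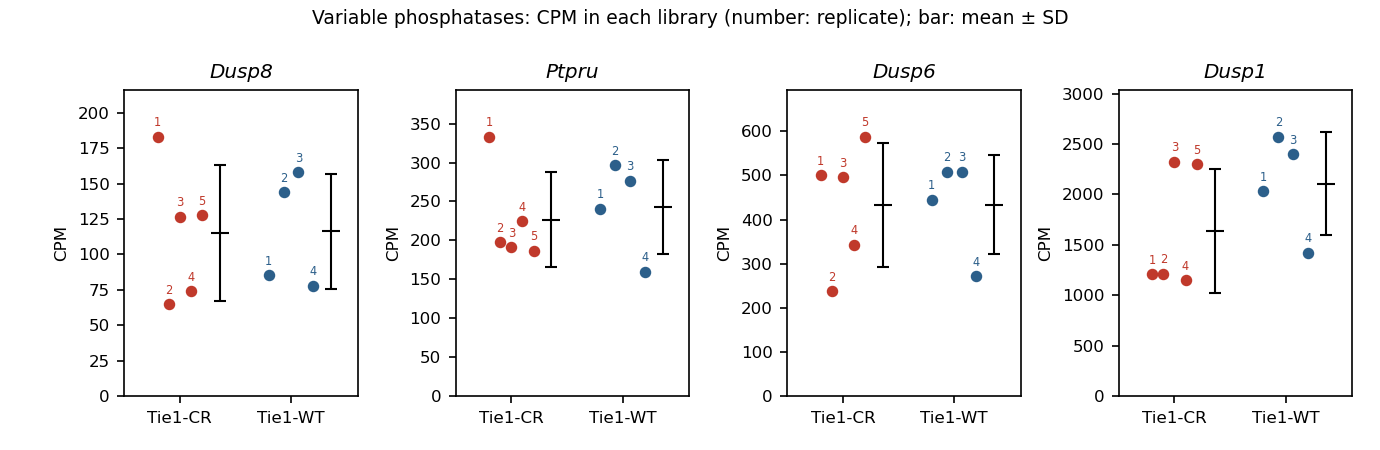
Level in CPM (vertical axis, from 0) of Dusp8, Ptpru, Dusp6 and Dusp1 in each library, Tie1-CR in red and Tie1-WT in blue, numbered by replicate, with mean ± SD (n = 5 and 4). Libraries of the same genotype differ widely, Dusp8 between 64.7 and 183 CPM in Tie1-CR and between 77.8 and 158 CPM in Tie1-WT.

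Promoter sequences were at hand for 24 of the 29 members, 30 promoters in all, as the 250 bases before each start in RefSeq (GRCm38.p6). Ptprd, Ptpn2, Ptpn12, Ptp4a3 and Dusp4 had no entry. Motifs were searched on both strands. The cyclic AMP response element TGACGTCA was found in 3 member promoters, those of Ptpn11, Ptpru and Dusp8, and in 248 of the 9205 promoters of table genes (2.69%). The EGR motif GCGNGGGCG was found in 8 of the 30 member promoters and in 9.17% of all, and the ETS motif CCGGAAG in 2 of the 30 and 14.2% of all. The FOXO motif GTAAACA was found in 1 of the 30 and 2.05% of all, the AP-1 motif TGANTCA in 1 of the 30 and 4.22% of all, and the NF-kappaB motif in 10 of the 30 and 22.7% of all. The serum response element known as the CArG box was found in 0 of the 30 and 1.13% of all. The shorter element TGACG, which every full cyclic AMP response element contains, was found in 17 of the 30 and 28% of all. A match is a run of letters and no evidence of binding.

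Shown here are the promoters that hold the full cyclic AMP response element, which include that of Ptpn11, the member with the smallest p, and those of the highly variable Dusp8 and Ptpru. Capitals mark matches to any of the motifs except the shorter element, and positions count back from the base before the start, which is -1. In Ptpn11 the ETS match begins at -103, the cyclic AMP response element at -67, and overlapping EGR matches at -38, -32 and -26. In Dusp8 the element begins at -107 and again at -63, and in Ptpru at -41.
Ptpn11, chr5:121191398-121191647, minus strand: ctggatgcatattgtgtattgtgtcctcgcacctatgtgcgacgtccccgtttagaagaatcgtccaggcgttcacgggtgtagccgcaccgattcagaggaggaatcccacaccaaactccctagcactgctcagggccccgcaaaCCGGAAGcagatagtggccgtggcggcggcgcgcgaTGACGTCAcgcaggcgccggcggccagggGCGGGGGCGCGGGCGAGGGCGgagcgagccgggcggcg
Dusp8, chr7:142095285-142095534, minus strand: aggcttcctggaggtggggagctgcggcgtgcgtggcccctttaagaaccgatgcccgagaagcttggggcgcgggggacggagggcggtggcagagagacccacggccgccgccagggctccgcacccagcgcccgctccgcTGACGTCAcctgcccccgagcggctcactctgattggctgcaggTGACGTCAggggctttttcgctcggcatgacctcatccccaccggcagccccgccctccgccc
Ptpru, chr4:131838279-131838528, minus strand: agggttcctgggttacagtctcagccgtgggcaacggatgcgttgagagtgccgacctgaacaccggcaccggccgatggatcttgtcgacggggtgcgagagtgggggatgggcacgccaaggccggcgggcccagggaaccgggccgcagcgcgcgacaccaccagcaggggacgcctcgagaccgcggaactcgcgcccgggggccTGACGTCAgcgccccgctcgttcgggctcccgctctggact

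A list of 59 measured genes holds 4 groups of partners and substrates of these phosphatases and 1 group of other phosphatases and their relatives. In all 1 rose and 1 fell (3.39%, against 4.05% of all genes), and the one that fell belongs to the other phosphatases. Their median difference was 0.0078 log2. The libraries of the 2 genotypes did not overlap for 5 of the 59 that were higher in Tie1-CR and 4 that were lower (15.3%, against 10.5% of all genes). Tie1 and Mapk7, the latter named after its values were seen, are among those higher. Among the MAP kinases, which include substrates of the MAP kinase phosphatases, 8 of 9 were measured and Mapk11, a p38 kinase, rose. It had 54.5, 63.8, 49.8, 53.9 and 59.4 CPM in the Tie1-CR libraries and 39.9, 38.6, 42.3 and 50.9 CPM in the Tie1-WT libraries, so that Tie1-WT replicate 4 overlapped Tie1-CR replicate 3. The difference was 0.39 log2 (limma, adjusted p = 0.0369), and the call was lost in 11 of 21 alternatives. Mapk3, an ERK kinase, differed by 0.048 log2 and did not pass the threshold (limma, adjusted p = 0.682).

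Another group holds docking proteins and adaptors of Ptpn11 and Ptpn6, with the exchange factors Sos1 and Sos2. All 12 were measured and 0 passed. The smallest p-values belonged to Sos2, Gab2 and Frs2. Gab2, a docking protein that binds SHP2, averaged 34.3 ± 3.73 CPM in Tie1-CR and 40.7 ± 1.90 CPM in Tie1-WT, and every Tie1-CR library was below every Tie1-WT library (difference -0.25 log2; limma, adjusted p = 0.0957). Sos2, an exchange factor that activates Ras, averaged 83.4 ± 5.77 CPM in Tie1-CR and 94.0 ± 2.65 CPM in Tie1-WT (difference -0.17 log2; limma, adjusted p = 0.0952). Frs2, an adaptor of fibroblast growth factor receptors, had a difference of -0.10 log2 (limma, adjusted p = 0.351). Pecam1, the endothelial adhesion receptor whose tail binds SHP2, averaged 2713 CPM in Tie1-CR and 2592 CPM in Tie1-WT (limma, adjusted p = 0.578). Mapk3 and Pecam1 are named for their roles, after their values were seen.

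Of the Src family kinases and their partners 7 of 11 were measured and 0 passed. Csk, which phosphorylates the inhibitory tyrosine of Src family kinases, averaged 63.5 ± 4.61 CPM in Tie1-CR and 55.0 ± 0.822 CPM in Tie1-WT, with no overlap between the groups (difference 0.20 log2; limma, adjusted p = 0.0654). Yes1, a Src family kinase, had a difference of -0.20 log2 (limma, adjusted p = 0.148), and Jak2, a cytokine receptor kinase, of -0.15 log2 (limma, adjusted p = 0.197). Of the junction proteins and receptors, all 8 were measured and 0 passed. The smallest p-values there belonged to Tie1, at 0.19 log2, to Flt4, a lymphatic growth factor receptor, at 0.17 log2 (limma, adjusted p = 0.149), and to Ctnnb1, or beta-catenin, at -0.16 log2 (limma, adjusted p = 0.160).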

How the data were processed

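Total RNA of mouse lung endothelial cells was extracted with the PicoPure kit and made into libraries with the SMARTer Ultra Low kit, per the labels' protocols. STAR 2.7 and the builds GRCm38.p6 and mm10 are named in the submitters' processing notes, and the counting tool is not given in the sources used here. The table the authors deposited is called TPM, but its values have the form of CPM. In each library 100% of them are multiples of a single step, to within 0.01 reads, which gives 38208696 to 54408116 reads a library. This number is inferred from the step, and the table has no low values to check it by. The table holds 98.3% to 98.6% of them, and each gene reaches at least 10.0 CPM in some library, so lower phosphatases cannot be assessed. CPM keeps gene length in the values.

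Values were used as log2(CPM + 1), which understates changes of low genes, with a filter of 1 CPM in 4 libraries that removed 0 genes. The 2 genotypes were compared by the two-sided moderated test of limma 3.58.1 with a mean-variance trend, in R 4.3.3, over 9277 genes, adjusted p values being Benjamini-Hochberg at 0.05. The fit was tested on simulated data. Summed markers were tested by exact permutation of libraries. Exons and coding sequences came from GENCODE M21 and promoters from RefSeq, and the plots from matplotlib 3.10.9.

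Named are members past the threshold, the 3 highest and the 3 smallest p of each class, members without overlap, the 4 left-out relatives, and, from each group of the related genes, those past the threshold or else the 3 smallest p. The other members are named so that all are accounted for. Members, lists and rules were chosen with earlier results of these data known. The alternatives changed the pseudocount, filter, scaling, variance model, covariates and libraries. Epithelial markers as a covariate and a correction for GC content and length were chosen after seeing the data.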

Additional observations from a re-analysis of the deposited data

Results flagged for a closer look

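Of 90 groups of libraries examined, 2 held a library far from the others by Dixon's test, and chance alone marks about 1 group in 20. Ptpru in Tie1-CR replicate 1 was at 333 CPM, with the other Tie1-CR libraries at 187 to 225 CPM, so that its Tie1-CR mean rests in part on this library. Tie1 in Tie1-CR replicate 4 was at 2679 CPM, with the other Tie1-CR libraries at 2329 to 2423 CPM.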

How the results depend on the processing

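The differences of Ptpn11 and Dusp4 stayed negative in all 21 alternatives, and 20 of the 29 members kept their sign in all of them. Members called lower numbered 2, against 1 with the replicate block, 0 with the leukocyte covariate, 0 with the epithelial covariate and 0 to 2 without single libraries (0 without Tie1-WT replicate 1, 2 or 3). Members called higher numbered 0, against 1 with quantile normalization, 1 with library weights and 0 to 0 without single libraries. All genes called higher numbered 119, against 182 with TMM scaling, 183 with quantile normalization, 245 with library weights, 38 with the replicate block, 1 with the leukocyte covariate, 2 with the epithelial covariate, 59 with the GC and length correction and 6 to 110 without single libraries (6 without Tie1-WT replicate 1). All genes called lower numbered 257, against 416 with library weights, 145 with the replicate block, 15 with the leukocyte covariate, 23 with the epithelial covariate and 54 to 245 without single libraries. Of all calls 68.4% were lower, and 51.1% with TMM scaling, 50.9% with quantile normalization, 79.2% with the replicate block, 93.8% with the leukocyte covariate and 92% with the epithelial covariate. Related genes called higher numbered 1, against 2 with TMM scaling, 2 with quantile normalization, 4 with library weights, 0 with the replicate block, either covariate or the GC and length correction, and 0 to 1 without single libraries. Related genes called lower numbered 1, against 2 with library weights, 0 with the replicate block, either covariate or the GC and length correction, and 0 to 2 without single libraries. The summed leukocyte level differed by 0.212 log2, with 0.16 to 0.301 without single libraries, and passed without Tie1-WT replicate 4 (exact permutation p = 0.0357, n = 3 in Tie1-WT). For the pan-leukocyte genes alone it was 0.00771 (exact permutation p = 0.929). The leukocyte sum holds Lyz2, which ranked the libraries of each genotype as the epithelial sum did, so the leukocyte and epithelial covariates are not independent. The causes were not tested.

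Other differences changed sign, none of them past the threshold. Most were near 0, but Ptprd was at 0.34 and Ptpru at -0.099 as reported. With the replicate block Dusp11 was at -0.0121, Ptpre at 0.000906 and Ptprm at 0.0181. With TMM scaling Ptpre was at 0.0165, Ptprk at 0.0153 and Ptprm at 0.0192, and with quantile normalization Ptpre was at 0.0275. With library weights Dusp8 was at 0.086, Ptprk at 0.0274 and Dusp6 at 0.089. With the leukocyte covariate Dusp8 was at 0.204, Ptpn9 at -0.0061, Ptprd at -0.0584, Ptpru at 0.311 and Dusp6 at 0.0659. With the epithelial covariate Dusp11 was at -0.00861, Dusp8 at 0.0415, Ptpn9 at -0.0105, Ptpru at 0.168 and Dusp6 at 0.0712. The GC and length correction put Ptprk at 0.0229. Without single libraries the ranges were -0.0121 to 0.0757 for Dusp11, -0.241 to 0.131 for Dusp8, -0.0225 to 0.0324 for Ptpn9, -0.00378 to 0.0341 for Ptpra, -0.0568 to 0.0479 for Ptpre, -0.0648 to 0.074 for Ptprk, -0.0844 to 0.0451 for Ptprm, -0.288 to 0.00882 for Ptpru and -0.238 to 0.17 for Dusp6.

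Replicate numbers showed no evident pairing of the libraries. Deviations of same-numbered libraries correlated at -0.144, 0.0041, -0.060 and 0.19, and 1 of 4 correlated best with its own number. So few correlations cannot decide whether same-numbered libraries share a litter or a day. The block leaves Tie1-CR replicate 5 without a partner. Under it Dusp4 was at -0.36 (limma, adjusted p = 0.153). Count-model tests were not run, because the table lacks the low values by which whole reads could be checked. Depth limits members near 10 CPM, such as Ptp4a1, Ptprd and Dusp4, most.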

Other observations

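Other phosphatases of the cysteine-based superfamily and their relatives, some of them without catalytic activity, were also on the list, 24 of 31 measured: 0 rose and 1 fell (4.17%, against 4.05% of all genes). Mtmr1, a myotubularin, which removes phosphate from phosphoinositides, had 34.8, 35.2, 34.6, 35.2 and 35.6 CPM in the Tie1-CR libraries and 41.1, 41.9, 39.0 and 40.7 CPM in the Tie1-WT libraries. The groups did not overlap, and the means were 35.1 ± 0.403 CPM in Tie1-CR and 40.7 ± 1.25 CPM in Tie1-WT (difference -0.21 log2; limma, adjusted p = 0.0241). The call was lost in 7 of 21 alternatives. The related myotubularins Mtm1 and Mtmr6 were also without overlap and lower in Tie1-CR, at -0.22 and -0.14 log2, but did not pass (limma, adjusted p = 0.103 and 0.147).

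The groups did not overlap either for Tns2, a tensin of focal adhesions, and for Sbf1, a myotubularin relative that lacks catalytic activity, both higher in Tie1-CR. Of the 24 measured, 2 were thus without overlap and higher, and 3 without overlap and lower (20.8%, against 10.5% of all genes). Tns2 averaged 775 ± 87.3 CPM in Tie1-CR and 648 ± 18.1 CPM in Tie1-WT (difference 0.25 log2; limma, adjusted p = 0.0949). Sbf1 averaged 219 ± 19.4 CPM in Tie1-CR and 193 ± 2.43 CPM in Tie1-WT (difference 0.18 log2; limma, adjusted p = 0.123). These 4 genes beside Mtmr1 were named after their values were seen.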
